A study of Saccharomyces cerevisiae with 4 samples.

Results

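The proteasome subunit genes of *Saccharomyces cerevisiae* were described in cells of a *mid2* mutant after 3 h of zymolyase, which breaks down cell wall glucan. Members were chosen by name, with earlier results of these data known. They have an RPN, RPT, PRE or PUP symbol followed by a number, or are *SCL1*. A value on at least 3 of the 4 arrays was required. Of 34 such symbols in the table, 31 met the rule, out of 6172 genes in all. They comprise 13 genes of the core particle (PRE, PUP and *SCL1*) and 18 of the regulatory particle (RPN and RPT). Of the 31, 30 had a value on all 4 arrays and entered the test, and *PRE8* lacked 1 array. *RPN4*, *RPN14* and *PRE3* had values on fewer than 3 arrays and are not members.

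Both groups compared were BY4741 cells carrying a *mid2* mutation, grown in rich YEPD medium at 24 °C. Treated cells spent 3 h with 0.8 units of zymolyase per ml, and untreated cells were the other portion of the same culture. Per the labels there were 2 cultures, each hybridised on 2-colour arrays with the dyes swapped, for 4 arrays in all. Arrays 1 and 3 carried the treated RNA in Cy3, and arrays 2 and 4 carried it in Cy5. Which arrays share a culture is not stated, nor how the *mid2* allele was made, and a comment on array 4 gives its untreated cells as a *hog1* mutant. By their genotype labels untreated cells carry the same mutation, and cells with an intact *MID2* gene were not analysed here, so the values describe the mutant alone. *MID2*, which encodes a cell surface sensor of wall damage, had no value on any array, so the genotype was not checked. *HOG1* read 0.20, 0.55, −0.15 and 0.26 on arrays 1 to 4, and the genotype of array 4's untreated cells was not tested.

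The proteasome degrades proteins that carry ubiquitin chains. Its core particle is a barrel of alpha and beta rings with the proteolytic sites inside. The regulatory particle caps the barrel: its base holds a ring of AAA ATPases that unfold substrates and pull them in, and its lid holds the enzyme that cuts off ubiquitin. In yeast the transcription factor Rpn4 activates most of these genes together and is itself a short-lived substrate of the proteasome. *S. cerevisiae* Slt2, the MAP kinase that signals wall damage, is known to be needed for the rise in regulatory particle assembly chaperones after the TOR kinase complex is inhibited.

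Values are given as log2 of treated over untreated in the likely direction, which was set from 10 anchor genes known to respond to zymolyase, *SLT2* among them. The anchors' medians were 1.65, 1.93, 2.35 and 1.93 on arrays 1 to 4, and 9 of the 10 passed the test upward, which is no independent evidence of the direction. A gene passed if its limma p, adjusted over all 3299 genes with 4 values, was under 0.05 under both possible pairings of arrays into cultures. Over all genes tested the array medians were −0.022, −0.37, −0.045 and −0.069 in array order, with array 2 lowest, and array 4 had the narrowest spread (SD across genes 0.34, against 0.59 to 0.76). Spot brightness is unknown.

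After 3 h of zymolyase, no proteasome subunit gene passed the test in either direction. The number was 0 of 30, against 137 of 3299 genes tested, or 4.15% (2.76% up and 1.39% down), so the members' count is near the share over all genes. At an unadjusted limma p under 0.05 the number was also 0 of 30, against 10.8% of all genes. The members' means over 4 arrays lay between −0.38 and 0.38, with a median of −0.038, against −0.14 for all genes. Of the members, 27 of 30 had a mean above that median of all genes, against 1649 of the 3299 genes tested. They were all 18 of the regulatory particle and 9 of 12 of the core particle. The members' limma 95% intervals all lay within a 2-fold change, with limits from −0.93 to 0.92, as did those of 84.7% of all genes. The standard error behind them was 0.28 for every member. Limma drew it wholly from the spread across genes under the pairing of arrays 1 with 2, which gave the larger value. The intervals therefore do not show how well a member's own arrays agreed. *PRE1* (SD over 4 arrays 0.92) and *PRE7* (SD 0.15) had the same standard error. RNA came from whole cultures, so a smaller share of cells with a transcript and less of it in each cell cannot be told apart.

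**Figure D1:**
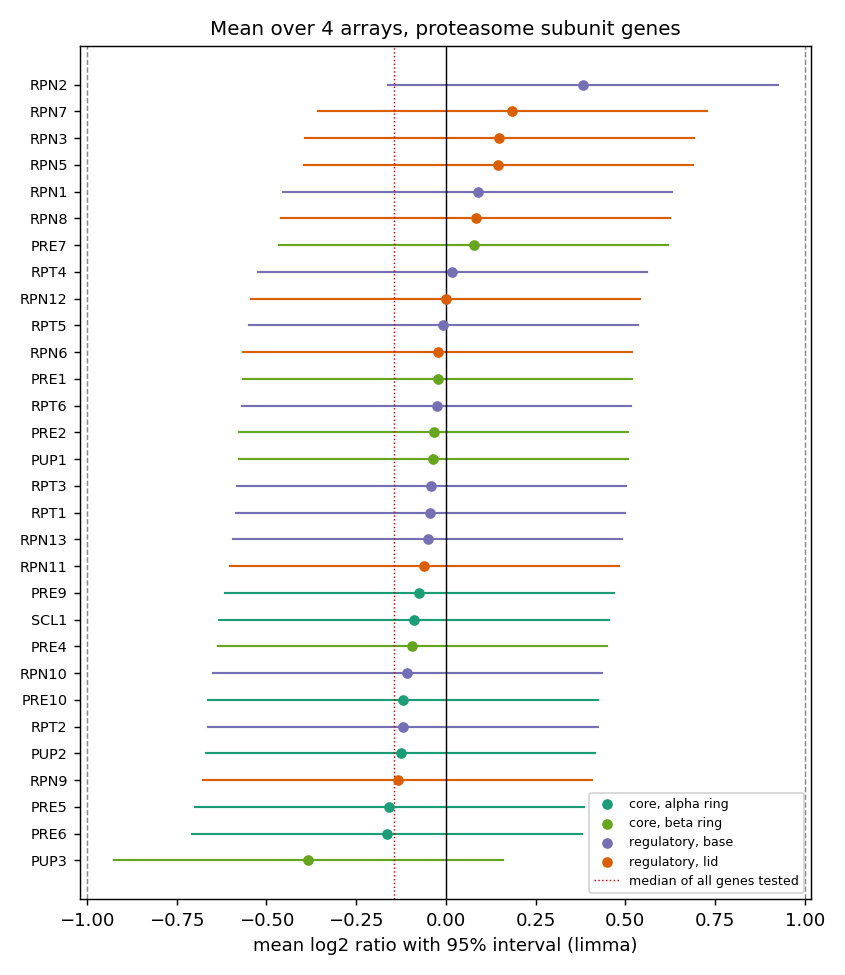
Mean log2 ratio over 4 arrays (x axis) of each of the 30 proteasome subunit genes tested, with its limma 95% interval as a horizontal line, coloured by subcomplex. Solid, dashed and dotted vertical lines mark 0, a 2-fold change and the median of all 3299 genes tested (−0.14). Every interval crosses 0 and stays between −1 and 1.

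The members' values on single arrays were moderate in size, with 3 of 120 above 1 in size, and they separated by dye orientation. On each array their SD across genes (0.33, 0.39, 0.36 and 0.18 on arrays 1 to 4) was below that of all genes (0.59, 0.76, 0.62 and 0.34). On arrays 1 and 3, with treated RNA in Cy3, 21 of 30 members were above 0 on each. On array 2, with treated RNA in Cy5, 2 of 30 were above 0, and on array 4 there were 9. Over all genes tested, 48.6%, 26.2%, 46% and 37.8% were above 0 on arrays 1 to 4. Each orientation holds 1 array of each culture, whichever arrays share a culture.

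Above 0 on both Cy3 arrays and below 0 on both Cy5 arrays were 15 of 30 members (50%), against 15.6% of all genes. The opposite arrangement was found in 0 of 30 members and 4.85% of all genes. Counted by order rather than sign, both Cy3 arrays lay above both Cy5 arrays in 18 of 30 members (60%), against 29.4% of all genes. The reverse order was found in 3 members and 15.6% of all genes. With every array centred at its own median, which takes out the lower level of array 2, the first order was found in 15 of 30 members (50%) and 22.2% of all genes. The reverse order was then found in 4 members and 25.7% of all genes. These shares describe the members, which are not replicates.

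The half-difference between orientations, which is the mean of the Cy5 arrays minus that of the Cy3 arrays divided by 2, was negative in 25 of 30 members, against 60.0% of all genes. Its median was −0.21 over the members and −0.072 over all genes. Without regard to sign the medians were 0.206 and 0.185, so the members differed from all genes in the direction of the separation more than in its size. In a limma fit with a dye term, chosen after the data were seen, the dye coefficient had an adjusted p under 0.05 in 0 members and 0% of all genes. The lowest adjusted limma p of a member was 0.244. At an unadjusted p under 0.05 there were 7 of 30 members (23.3%), against 12.9% of all genes. After centring there were 6, against 14.6%. The difference between orientations was therefore not shown for any single member. That the Cy5 and Cy3 arrays were deposited with their ratios turned the same way rests on the anchors, 9 of which were above 0 on all 4 arrays, and on Pearson correlations over all genes (0.13 to 0.39 between orientations). Rank correlations between orientations were weaker, with Spearman's rho from −0.077 to 0.14. If the ratios had not been turned, the half-difference would take the place of the treatment mean, with a sign that depends on the numerator, which is unknown.

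**Figure D2:**
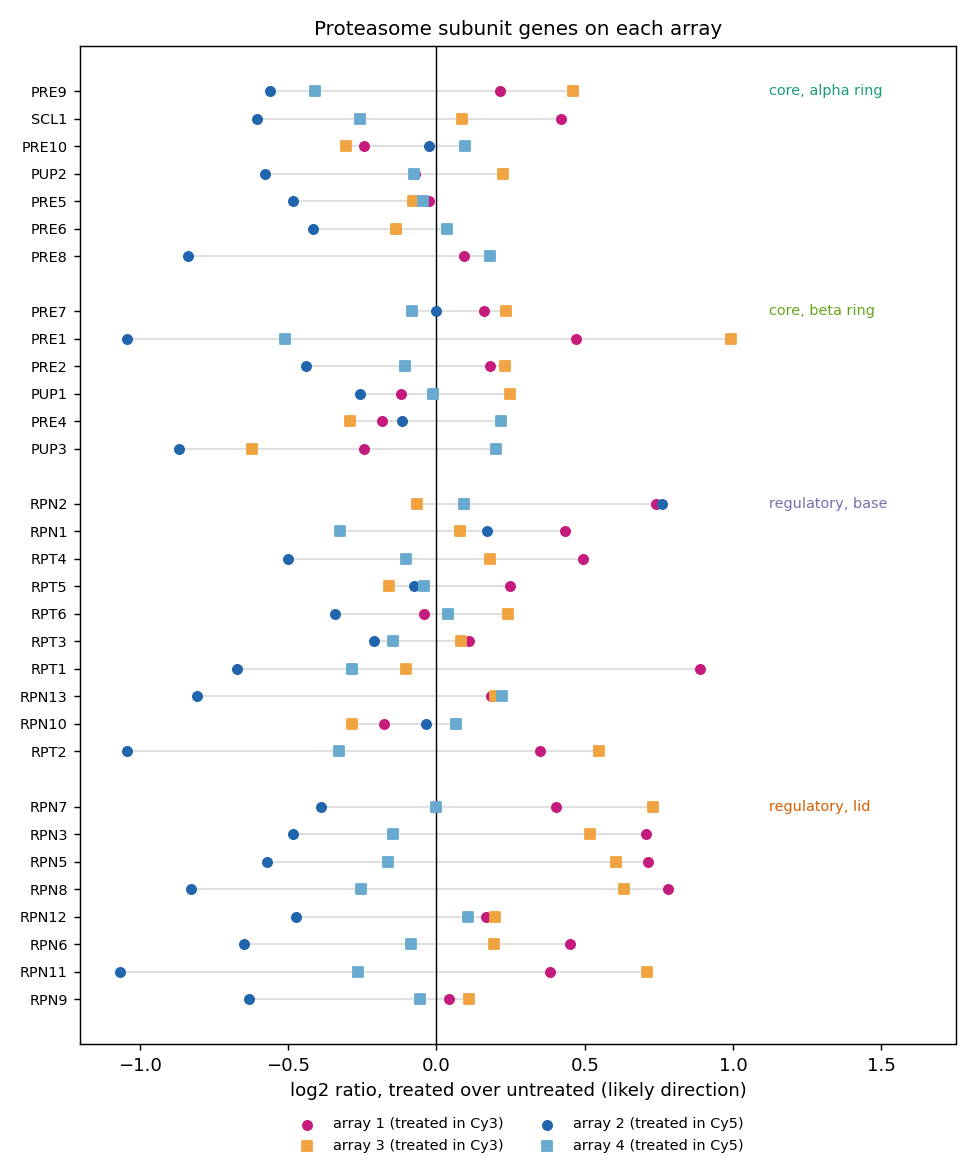
Log2 ratio (x axis) of each of the 31 proteasome subunit genes on each array, grouped by subcomplex and ordered by mean. In most rows the array 1 and array 3 points (treated RNA in Cy3) lie to the right of the array 2 and array 4 points (treated RNA in Cy5), as in 18 of the 30 genes with 4 values.

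The lid genes showed the separation most uniformly. Both Cy3 arrays lay above both Cy5 arrays in 8 of 8 lid genes, also after centring, against 29.4% and 22.2% of all genes. Of the 8, 4 had an unadjusted limma p of the dye coefficient under 0.05, against 12.9% of all genes. *RPN11*, which encodes the metalloprotease that removes ubiquitin chains from substrates, read 0.38, −1.07, 0.71 and −0.26 on arrays 1 to 4. *RPN8*, whose product forms a dimer with Rpn11, read 0.78, −0.83, 0.63 and −0.25. Their orientations do not overlap, and on both genes array 2 was lowest.

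Of the other lid genes, which encode mainly scaffold subunits, *RPN5* read 0.71, −0.57, 0.60 and −0.16 on arrays 1 to 4. *RPN3* was close to it at 0.71, −0.48, 0.52 and −0.15. The 4 lid genes with an unadjusted limma p of the dye coefficient under 0.05 were *RPN5*, *RPN3*, *RPN11* and *RPN8*, with half-differences of −0.51, −0.46, −0.61 and −0.62 in that order. *RPN7* (0.40, −0.39, 0.73 and −0.0029) had the largest mean of the lid, 0.19 ± 0.49 (SD over 4 arrays), with an adjusted limma p of 0.889.

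*RPN6*, which encodes a subunit that braces the lid against the core particle, read 0.45, −0.65, 0.19 and −0.086. *RPN9*, a lid gene that cells can lose, read 0.044, −0.63, 0.11 and −0.055, close to 0 on every array but the second. *RPN12* read 0.17, −0.47, 0.20 and 0.11. It was the only lid gene above 0 on a Cy5 array, and its mean was −0.00032. The lid means ran from −0.13 to 0.19, and 4 of 8 were above 0. All 8 were above the median of all genes (−0.14), as were 1649 of the 3299 genes tested.

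The genes of the base were less uniform, with both Cy3 arrays above both Cy5 arrays in 4 of 10, or 3 after centring. The shares over all genes were 29.4% and 22.2%, so these counts are near them. The 6 ATPase genes, *RPT1* to *RPT6*, had means between −0.12 and 0.018. All 4 base genes with that order were ATPase genes, *RPT1* to *RPT4*, and so were the 3 after centring. The reverse order was found in 0 of these 6. *RPT2*, whose product helps to open the gate of the core particle, read 0.35, −1.04, 0.55 and −0.33, a half-difference of −0.57. *RPT4* followed the same order (0.49, −0.50, 0.18 and −0.10), and so did *RPT3* (0.11, −0.21, 0.084 and −0.15).

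*RPT1* was the most variable ATPase gene after *RPT2*, at 0.89, −0.67, −0.10 and −0.29, and its value on array 1 was the highest of any regulatory particle gene there. *RPT5* (0.25, −0.074, −0.16 and −0.041) and *RPT6* (−0.043, −0.34, 0.24 and 0.041) stayed within 0.35 of 0, and their orientations overlapped. No *RPT* gene had an unadjusted limma p under 0.05 for treatment.

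The scaffold genes *RPN1* and *RPN2* departed from the rest. *RPN2* read 0.74, 0.76, −0.065 and 0.094 on arrays 1 to 4, and *RPN1* read 0.43, 0.17, 0.078 and −0.33. They were the only members above 0 on array 2. In *RPN2* arrays 1 and 2 lay above arrays 3 and 4, which is a separation by array pair and not by dye, and its orientations overlapped. Its mean of 0.38 ± 0.43 (SD over 4 arrays) was the largest of the members, or 1.30-fold, with a 95% interval of −0.16 to 0.92 and an adjusted limma p of 0.765.

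The ubiquitin receptor genes of the base differed from each other. *RPN10* read −0.18, −0.033, −0.28 and 0.065, with both Cy5 arrays above both Cy3 arrays. *RPN13* read 0.18, −0.81, 0.20 and 0.22, so that 3 arrays lay together and array 2 apart. Neither passed, with adjusted limma p-values of 0.938 and 0.967.

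In the core particle, 6 of 12 genes had both Cy3 arrays above both Cy5 arrays, or 4 after centring, against 29.4% and 22.2% of all genes. The reverse order was found in 2, or 3 after centring, against 15.6% and 25.7% of all genes. After centring both counts were near the shares over all genes. *PRE1*, a gene of the beta ring, had the widest separation of the members. It read 0.47, −1.04, 0.99 and −0.51 on arrays 1 to 4, a half-difference of −0.75, which was at the 1.00th percentile of all genes. Its mean was nonetheless −0.022 ± 0.92 (SD over 4 arrays), with an adjusted limma p of 0.989.

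Of the genes for the proteolytic subunits, *PRE2*, which encodes the chymotrypsin-like subunit, read 0.18, −0.44, 0.23 and −0.11. *PUP1*, which encodes the trypsin-like subunit, read −0.12, −0.26, 0.25 and −0.0100, with orientations that overlapped. *PRE3*, which encodes the caspase-like subunit, had a value on array 4 only, −0.28. *PRE7* (0.16, −0.0029, 0.24 and −0.082), a beta ring gene without a proteolytic site, was the only core gene with a mean above 0, at 0.078 ± 0.15 (SD over 4 arrays).

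*PUP3*, also of the beta ring, had the lowest mean of the members, −0.38 ± 0.47 (SD over 4 arrays). It read −0.25, −0.87, −0.62 and 0.20, below 0 on 3 arrays and above on array 4, and its adjusted limma p was 0.763 with a 95% interval of −0.93 to 0.16. *PRE4* (−0.18, −0.12, −0.29 and 0.22) had both Cy5 arrays above both Cy3 arrays.

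The 6 alpha ring genes tested had the narrowest range of means of the subcomplexes, from −0.16 to −0.074. *PRE9*, the alpha gene that cells can lose, read 0.22, −0.56, 0.46 and −0.41, and *SCL1* read 0.42, −0.60, 0.085 and −0.26. Both had Cy3 arrays above 0 and Cy5 arrays below. *PRE10* had the reverse order, at −0.24, −0.025, −0.30 and 0.097.

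*PRE5* (−0.024, −0.48, −0.078 and −0.046) was the only member with the same sign on all 4 arrays, against 23.2% of all genes. *PRE6* (−0.14, −0.42, −0.14 and 0.036) and *PUP2* (−0.072, −0.58, 0.22 and −0.075) were, like *PRE5*, lowest on array 2. *PRE8* read 0.094, −0.84 and 0.18 on arrays 1, 2 and 4. Fitted with genes on at least 3 arrays, where 1 culture mean rests on a single array, *PRE8* had a value of −0.22 (limma 95% interval −1.02 to 0.45, adjusted p = 0.967).

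**Figure D3:**
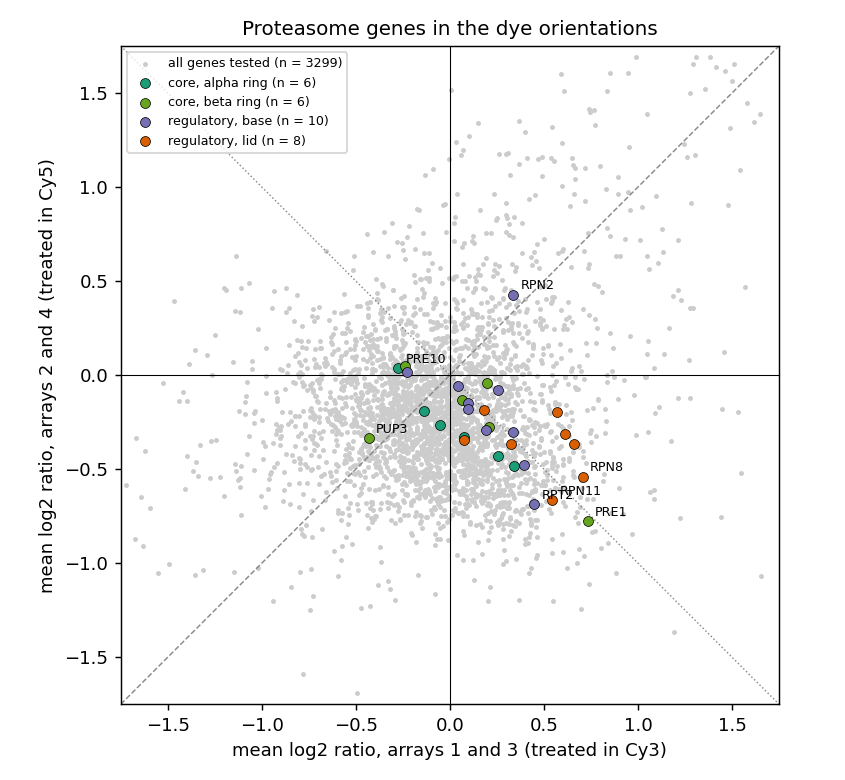
Mean log2 ratio of arrays 1 and 3 (x axis, treated RNA in Cy3) against that of arrays 2 and 4 (y axis, treated RNA in Cy5) for all 3299 genes tested (grey, 55 lie outside the axes) and the 30 proteasome subunit genes (coloured by subcomplex). Genes with equal values in both orientations lie on the dashed line and genes with opposite values on the dotted line. Most members lie below 0 on the y axis and above 0 on the x axis, with *PRE1* farthest out, and *RPN2* lies near the dashed line.

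Set against the median of all genes on the same array, the regulatory particle's median was higher by 0.42 and 0.24 on arrays 1 and 3, and its differences on arrays 2 and 4 were −0.12 and −0.025. For the core particle the differences were −0.026, −0.090, 0.20 and 0.0085 on arrays 1 to 4. The regulatory minus the core median was 0.44 on array 1, but −0.030, 0.041 and −0.034 on arrays 2 to 4. Its mean of 0.10 ± 0.23 (SD over 4 arrays) was smaller than the spread between arrays, and array 1 gave most of it. Between the medians of gene means the difference was 0.076, and 0.065 without array 1, so array 1 did not carry that measure. With treated RNA in Cy3 only, the medians of the gene means over 2 arrays differed by 0.26, and with it in Cy5 only by −0.028. The lid median was 0.45 and 0.61 above that of all genes on arrays 1 and 3, and its differences on arrays 2 and 4 were −0.23 and −0.046.

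**Figure D4:**
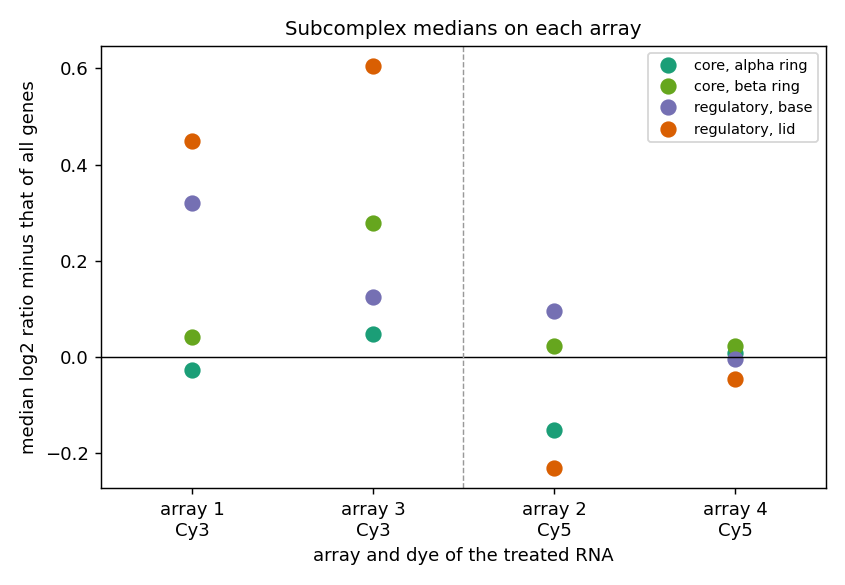
Median log2 ratio of each subcomplex minus the median of all genes tested (y axis) on each array (x axis, with the dye of the treated RNA). The lid has the highest point on both Cy3 arrays (0.45 and 0.61) and the lowest on both Cy5 arrays (−0.23 and −0.046).

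Across the 30 members, array values correlated positively within an orientation and negatively between orientations. Pearson's r across genes was 0.53 for arrays 1 and 3 and 0.38 for arrays 2 and 4. Over all genes these were 0.48 and 0.42, so the agreement within an orientation was not particular to the members. For the pairs of opposite orientation it ran from −0.63 (arrays 3 and 4) to −0.12 (arrays 1 and 2). Over all 3299 genes the pairs of opposite orientation had values from 0.13 to 0.39. By rank (Spearman's rho) these pairs ran from −0.61 to −0.30 across members and from −0.077 to 0.14 over all genes. The points share their hybridisations and RNA, and genes are not independent, so these values are descriptions. The members' means were closer together than those of all genes, with an SD of 0.14 across members against 0.41.

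The members were measured more completely than most genes, since 88.2% of the 34 symbols had a value on all 4 arrays, against 53.5% of all genes. Gene length, which the choice of members did not use, showed a weak rank correlation with the half-difference (Spearman's rho −0.21 across 30 members and 0.11 across 3185 genes with a length). *RPN4* had values on arrays 3 and 4 only, 0.36 and −0.12, which are of opposite orientation and sign, and it was not tested. *RPN14*, which encodes an assembly chaperone in spite of its name, read −0.37 and −0.089 on the same arrays.

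Related lists covered other genes of the ubiquitin and proteasome system, factors acting on *RPN4* and Hsf1-dependent chaperones. Of 121 related genes listed, 70 were tested. Of these 0 passed, against 4.15% of all genes, and 3 had an unadjusted limma p under 0.05, against 10.8% of all genes. With 1 to 18 genes tested a list, a count of 0 is near that share and says nothing particular about any of them. The 12 assembly and associated factors had a median of −0.14, against −0.14 for all genes. *BLM10*, which encodes an activator that caps the core particle, read −1.15, −1.49, 0.0063 and 0.021 on arrays 1 to 4. Arrays 1 and 2 lay far below arrays 3 and 4. The mean was −0.65 ± 0.78 (SD), and it did not pass in limma (adjusted p = 0.251). Its call depends on the unknown pairing: with array 1 paired to array 4 alone, it passed downward at an adjusted limma p of 0.0216.

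*ADD66* (mean −0.38) and *POC4* (mean −0.44) encode chaperones of alpha ring assembly, and *SPG5* (mean 0.43) encodes a factor for proteasomes in stationary phase. *SPG5* was above 0 on all 4 arrays, between 0.25 and 0.60, with an adjusted limma p of 0.706. *TMA17*, named here after its values were seen, encodes a stress-induced chaperone of regulatory particle assembly. It read 0.63, −0.27 and 0.21 on arrays 1, 2 and 4 and was not tested.

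The 15 ubiquitin, E1 and E2 enzyme genes had a median of −0.050. *CDC34*, which encodes the E2 enzyme of the SCF ligases, read 1.19, −0.23, 0.99 and −0.18 (half-difference −0.65, adjusted limma p of the mean 0.673). Both its Cy3 arrays lay above both Cy5 arrays, as in the lid genes, but also in 6 of these 15 genes and 29.4% of all genes. The polyubiquitin gene *UBI4* read −0.19, −0.14, 0.43 and 0.47 and *UBC7*, an E2 gene of protein degradation at the endoplasmic reticulum, −0.66, 0.13, −0.35 and 0.24. Both orders differ from that of the lid. *PEX4*, the peroxisomal E2 gene, had a mean of −0.14.

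The 12 shuttle factor and Cdc48 genes had a median of −0.16. *CDC48*, which encodes the ATPase that extracts ubiquitylated proteins, read 0.94, 0.84, −0.24 and −0.090, high on arrays 1 and 2 like *RPN2*. Its partner gene *UFD1* read 0.35, −1.60, 0.21 and −0.035, with the Cy3 arrays above 0 and the Cy5 arrays below. The shuttle factor gene *RAD23* (mean −0.38) and *CUE1* (mean −0.36), which encodes an anchor for the E2 enzyme Ubc7, did not pass.

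Of the 6 ubiquitin ligase genes tested, *BRE1* (mean −0.28), *HRT1* (−0.23), *UFD2* (−0.15) and *UBR1* (−0.098) had the largest means in size. Only 6 of 27 listed ligase genes and 6 of 18 listed deubiquitinase genes had 4 values. The deubiquitinase gene *UBP15* came nearest to the threshold of the related genes, at 0.26, 1.31, 0.72 and 1.01, all above 0. Its mean was 0.83 ± 0.45 (SD over 4 arrays), with an adjusted limma p of 0.0626. It passed in 4 of the 12 alternative fits. These included limma with a dye term (adjusted p = 0.0325) and limma on centred arrays (adjusted p = 0.0184). *OTU1* (mean −0.41), *YUH1* (−0.36) and *UBP11* (−0.31) did not pass.

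Of the factors that act on *RPN4*, *YAP1*, a transcription factor of oxidative stress, was the only one tested. It read 0.26, 0.23, 0.22 and −0.18. The 18 Hsf1-dependent chaperone genes, which answer to misfolded protein, had a median of −0.23. The largest means in size were those of *BTN2* (−0.60), *SSE2* (0.42), *SSA2* (−0.41) and *AHA1* (−0.40). The lowest adjusted limma p among them was 0.337, for *BTN2*. Both Cy3 arrays lay above both Cy5 arrays in 8 of these 18 genes, or 7 after centring, against 29.4% and 22.2% of all genes. The reverse order was found in 1, also after centring. Their median half-difference was −0.18, against −0.21 over the members, so the separation by orientation was not particular to the proteasome genes.

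**Figure D5:**
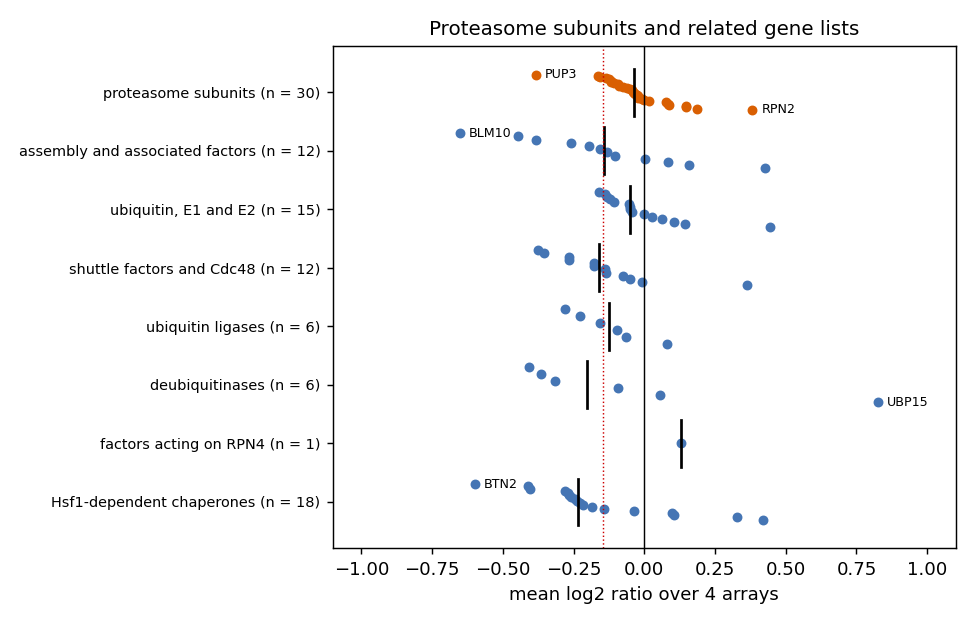
Mean log2 ratio over 4 arrays (x axis) of the proteasome subunit genes and of the genes of each related list, 1 point per gene, with a black bar at each median and a dotted line at the median of all genes tested (−0.14). Points are spread vertically by rank for legibility. The 30 subunit genes lie between −0.38 and 0.38, and some genes of the related lists lie outside that range, with *BLM10* (−0.65), *BTN2* (−0.60) and *UBP15* (0.83) farthest from 0.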

How the data were processed

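The authors deposited a single value per open reading frame and array, treated here as log2 of the ratio between channels. Its log base, numerator and normalization are unknown, since no source used here gives them, and scanner files were not analysed here. After removal of 2 control rows from 6209, 6207 rows remained, of which 5654 matched a RefSeq locus tag (assembly R64, names only), 57 a unique synonym and 496 neither. Rows of 1 gene were averaged (34 genes), which left 6172 genes, 3299 of them with 4 values.

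The arrays of a culture were averaged under both possible pairings, and the culture means were tested against 0 with limma 3.58.1 in R 4.3.3 (lmFit, eBayes), with Benjamini-Hochberg adjustment over all genes. The larger p and standard error and the outer interval limits of both pairings were kept. The procedure was also run on simulated data without a dye effect or array offsets. That run cannot show how it behaves with the separation by orientation seen here. Opposite orientations correlated above 0 over all genes (Pearson), so values were taken as already turned the same way.

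Alternatives changed the pairing, dye term, centring, scaling, missing-value filter, prior, threshold and arrays. Named genes were every member, the 4 largest means of each list and any member of a list past the threshold, the anchors and *MID2*. *HOG1* was added for the comment on array 4. Members and lists were chosen with earlier results of these data known. A planned group of genes with an Rpn4 motif in the promoter was not formed, because promoter sequences were not used here. The number of arrays limits the precision.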

Additional observations from a re-analysis of the deposited data

Results flagged for a closer look

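Dixon's test for 4 samples was applied to the array values of 65 named genes, and in 5 of them a single array stood apart from the other 3. By chance about 5% of such groups would be flagged, which is 3.25 of 65, and that rate need not hold for dye swaps of 2 cultures.

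In 3 of the 30 proteasome subunit genes array 2 stood apart, always as the lowest. At the same 5% rate 1.5 of 30 would be flagged, and the share flagged over all genes was not computed. *RPN13* read −0.81 there and 0.18 to 0.22 on the other arrays. *RPN12* read −0.47 there and 0.11 to 0.20 on the others, and *PRE5* read −0.48 there and −0.078 to −0.024 on the others. Array 2 had the lowest median of all genes, and it was the lowest array in 23 of 30 members and in 1683 of 3299 genes. The part of that lower level in these values was not tested.

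Of the other named genes, *YAP1* stood apart at −0.18 on array 4 (other arrays 0.22 to 0.26), and the anchor gene *PST1* on array 1 at 1.07.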

How the results depend on the processing

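The count of proteasome genes past the threshold was 0 in each of the 12 alternative fits and at an adjusted p under 0.1, and their lowest adjusted limma p in any of these fits was 0.168 (*RPN2*, arrays 1 with 4 as the only pairing). Member values ran from −0.54 (*PUP3*, without array 4) to 0.51 (*RPN2*, arrays centred). In all 360 combinations of a member with 4 values and an alternative fit, the member stayed short of the threshold. Its value moved by less than its SD over arrays, although its sign changed in 72 of them (25 of 30 members). That bound was almost fixed in advance and says little about stability. Pairing, dye term, missing-value filter and prior leave the mean of 4 values unchanged, and centring shifts every gene alike. Dropping 1 array can move the mean only by part of that SD. Leaving out an array breaks the balance of the dyes, so *PRE1* ranged from −0.46 to 0.42 over the fits. The count of all genes past the threshold (137, 91 up and 46 down) was 306 with arrays 1 with 4 as the only pairing, 125 and 65 with 4 arrays fitted singly, with and without a dye term, 2 with scaling to 1 spread, 47 with values on at least 3 arrays and 357 at an unadjusted p under 0.05. Without single arrays it ran from 5 (without array 4) to 101, with 47 without array 1 and 73 without array 2. Falls made up 28 of 115 calls after centring and 74 of 160 with a robust prior. The regulatory minus core median of gene means, 0.076, ran from 0.065 to 0.18 without single arrays. Leaving out *RPN14* changed nothing, since it is no member. The fits by orientation and the dye coefficients were chosen after the data were seen. The 4 arrays, 2 cultures and unknown spot brightness limit every value.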
